A study of Mus musculus with 88 samples.

Results

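The 38 genes described here are imprinted genes of the mouse, fixed as a list by name and grouped into 9 imprinted domains and 9 single loci. All 38 were present in the mesoderm, endoderm and single-cell tables and 32 in the bulk embryoid body (EB) table, out of 54422 genes in the directed tables, 26007 in the EB table and 15830 in the single-cell table. An imprinted gene is transcribed mainly from the copy inherited from one parent, because DNA methylation or histone marks laid down in the egg or the sperm keep the other copy silent. Such genes lie in clusters around an imprinting control region, often with a long noncoding RNA from one parental copy and protein-coding genes from the other, and many act on fetal growth and the placenta. Polycomb Repressive Complex 2 (PRC2), the methyltransferase for lysine 27 of histone H3, is known to take part in silencing at several of these clusters. The parent of origin of a transcript was not measured in these data, so each value is the sum over both copies.

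The study compared mouse embryonic stem cells (ESCs) with and without PRC2 subunits. MTF2 is an accessory subunit of the form called PRC2.1, JARID2 of the form called PRC2.2, and EED is a core subunit of both. In the directed experiment WT E14 cells (129/Ola), Mtf2 null cells (Mtf2 GT/GT, a gene trap) and Jarid2 null cells, kept in serum and LIF, were taken through primitive streak induction towards mesoderm or towards endoderm and sampled undifferentiated and at 5, 24 and 48 h. Each genotype was 1 cell line, with 2 libraries per time and series, which the study calls technical duplicates, so p-values measure the spread between such libraries. In bulk EBs, lines labelled Mtf2 null, Jarid2 null and Eed null were followed at days 0, 2, 4 and 7 beside the WT lines Pcl1-3 WT, JM8 and J1, with 1 sample per line and day. The EB values came from 46 columns, most samples having 2 (named r1 and r2), which were averaged per sample. The spread between those columns therefore does not enter the EB tests. Day 0 columns carry mono in their names and columns of later days eb, for null and WT lines alike. In the single-cell experiment EBs of WT E14 and of the 3 null genotypes were sampled at days 0, 4, 7 and 10, with 1 library per genotype and day. The study names Pcl1-3 WT, JM8 and J1 as the lines matched in background to the Mtf2, Jarid2 and Eed null cells, so in the directed and single-cell experiments, where WT was E14, genotype and line background cannot be told apart.

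The directed libraries held 9111880 to 16898264 counts, and the single-cell libraries 202 to 347 cells and 1339722 to 3889890 UMIs, where plates share 384 well barcodes and no 2 libraries a cell name. Mtf2 stood at 30.2 to 38.2 CPM (counts scaled to the library total) in Mtf2 null libraries and 206 to 509 CPM in WT. Jarid2 was close to WT in the libraries labelled Jarid2 null, with 297 to 329 CPM undifferentiated against 352 to 473 CPM in WT (log2 fold change −0.41, adjusted p = 7.3e-03), so its transcript does not check that label there. In the single cells at day 0, Mtf2 was at 56.3 against 793 UMI CPM (UMIs scaled in the same way) in WT, Jarid2 at 146 against 594, and Eed at 11.5 against 478. In the bulk EBs no null label was checked by loss of its target transcript on any day. Mtf2 at days 0, 2, 4 and 7 was at 324, 227, 232 and 166 CPM under the Mtf2 null label against 413, 433, 316 and 385 in Pcl1-3 WT. Jarid2 was at 603, 676, 247 and 223 CPM under the Jarid2 null label against 507, 636, 272 and 322 in JM8, and Eed at 109, 205, 107 and 58.8 under the Eed null label against 103, 246, 78.5 and 52.9 in J1. At day 0 the library labelled Jarid2 null held 129 CPM of Mtf2, less than the one labelled Mtf2 null, and both stood apart from the later days of their own labels in several imprinted genes, so the EB calls are also given without day 0. Undifferentiated libraries with the same number in the 2 directed series deviated together (correlation across genes of the replicate difference 0.56 to 0.61), so the 4 libraries per genotype may not be 4 separate cultures.

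RefSeq promoters (GRCm38.p6) were found for 32 of the 38 genes. The 3 printed here, each the 250 bases before the start site read on the gene's strand, belong to genes the results turn on. Meg3 heads the noncoding transcripts that were lowest in Mtf2 null cells, Peg3 shares its promoter region with Usp29, and Plagl1 had 1 count over 4 undifferentiated WT libraries. Capitals mark CG dinucleotides, the sites of DNA methylation in mammals.
Meg3 (chr12:109540746-109540995, plus strand): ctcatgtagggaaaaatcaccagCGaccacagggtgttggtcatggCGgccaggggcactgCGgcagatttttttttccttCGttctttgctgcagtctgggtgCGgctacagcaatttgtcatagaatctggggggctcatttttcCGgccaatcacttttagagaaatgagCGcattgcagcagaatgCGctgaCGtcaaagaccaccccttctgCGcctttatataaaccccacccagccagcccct
Peg3 (chr7:6730420-6730669, minus strand): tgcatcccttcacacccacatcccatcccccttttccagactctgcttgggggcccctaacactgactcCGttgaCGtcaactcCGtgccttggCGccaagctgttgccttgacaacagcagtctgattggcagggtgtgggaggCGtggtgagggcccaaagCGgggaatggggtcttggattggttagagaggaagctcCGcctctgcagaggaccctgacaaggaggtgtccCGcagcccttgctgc
Plagl1 (chr10:13090582-13090831, plus strand): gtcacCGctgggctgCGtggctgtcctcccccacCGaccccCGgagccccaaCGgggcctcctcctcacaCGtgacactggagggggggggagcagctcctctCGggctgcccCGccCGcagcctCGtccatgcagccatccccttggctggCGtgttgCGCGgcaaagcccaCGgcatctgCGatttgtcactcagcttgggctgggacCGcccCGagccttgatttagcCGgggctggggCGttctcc

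These 3 windows held 10, 8 and 19 CG dinucleotides, against a median of 8 in the 32 promoters (range 0 to 40) and 6 in the 32851 promoters of the table. The hexamer TGCCGC, read on both strands, is the core of the site that ZFP57, a protein that maintains imprints, binds when the site is methylated. It occurred in 3 of the 32 windows (9.38%: Meg3, Zim1 and Plagl1) and in 8.68% of all promoters, so its share in imprinted genes was near that in promoters at large. The start sites of Peg3 and Usp29 lay 164 bases apart on opposite strands, and their windows shared 163 bases. The Plagl1 window belongs to a start site 30328 bases inside the annotated gene.

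In the directed experiment a gene was called changed at a Benjamini-Hochberg adjusted p under 0.001 over all genes tested with a log2 fold change above 1 in size, in edgeR's quasi-likelihood test. In undifferentiated Mtf2 null cells, 15 of the 32 imprinted genes tested were called, 11 higher and 4 lower, where 14.7% of 16655 genes were called (8.11% higher, 6.57% lower). The median log2 fold change of the imprinted genes was 0.40. In the mesoderm series 11, 9 and 9 of 34 were called at 5, 24 and 48 h, against 7.56%, 5.72% and 6.82% of genes. In the endoderm series 12, 11 and 13 of 36 were called, against 7.61%, 6.58% and 10.5%. Over these 7 Mtf2 null comparisons, 20 imprinted genes were called at least once, 6 of them in all 7 and none in both directions. The 6 were Meg3, Rian and Mirg, which were lower, and Plagl1, Nnat and Sfmbt2, which were higher.

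**Figure D1:**
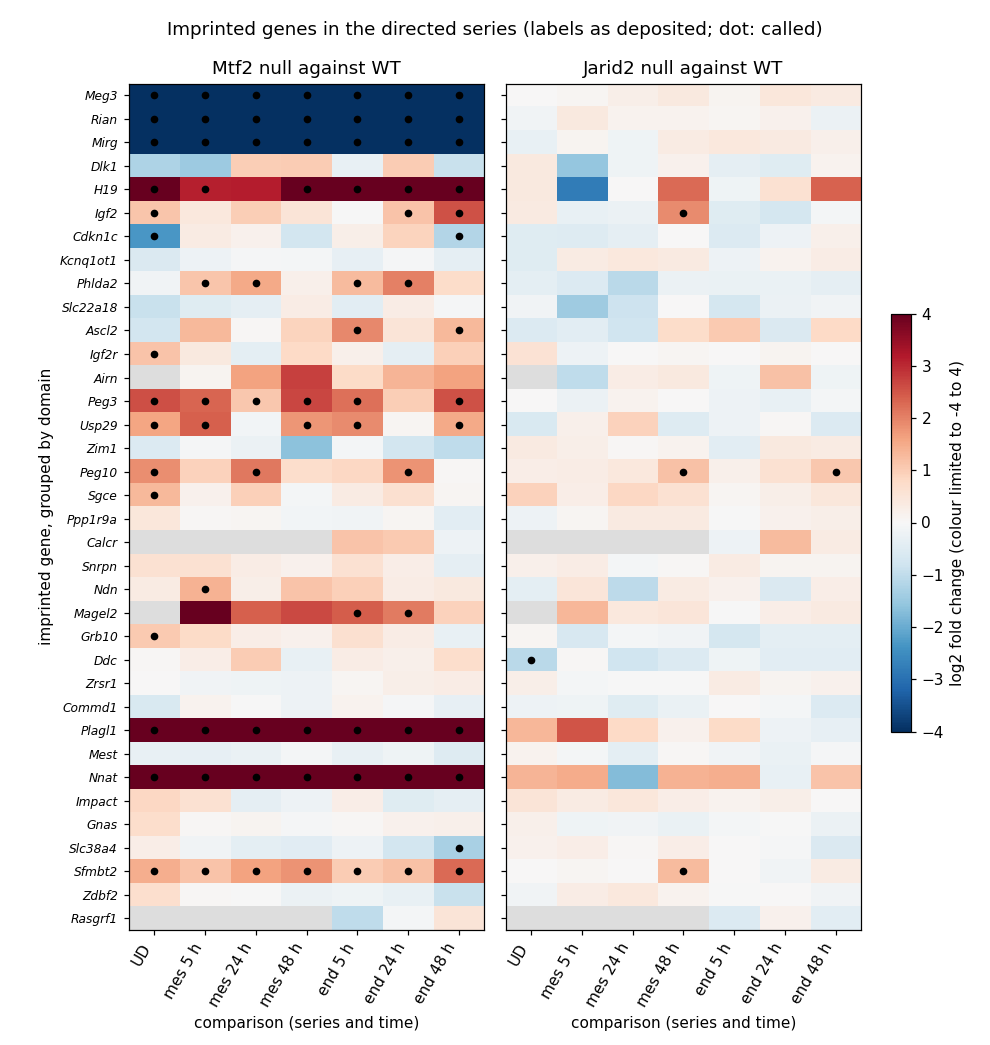
Log2 fold change of each null line against WT (colour) for the 36 imprinted genes tested in the directed experiment (rows, by domain), in 7 comparisons each of the Mtf2 null and Jarid2 null libraries (columns); a dot marks a call and grey a gene not tested. The Mtf2 null columns hold dark rows for Meg3, Rian, Mirg, Plagl1 and Nnat at every time, and the Jarid2 null columns hold 5 dots in all.

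Markers of extraembryonic endoderm moved with genotype and time. Of the 8 listed, 5 of 5 tested were higher in undifferentiated Mtf2 null cells and 6 of 6 at 48 h in each series. Their summed level was 736 to 977 CPM against 179 to 225 in WT undifferentiated, 1322 to 1331 against 81.1 to 93.6 at 48 h of mesoderm, and 1693 to 1935 against 42.8 to 53.5 at 48 h of endoderm. Lama1 carried most of these sums, and Afp was at 0 in every undifferentiated library. Trophoblast markers were at 98.1 to 122 CPM against 35.8 to 44.4 in WT undifferentiated cells, at 366 to 421 against 102 to 167 at 48 h of mesoderm and at 311 to 416 against 47.8 to 52 at 48 h of endoderm. Definitive endoderm markers at 48 h of endoderm were at 48.8 to 57.3 against 0.866 to 0.942 CPM, primitive streak and mesoderm markers at 58.9 to 60.3 against 12.6 to 13.0, and neural ectoderm markers at 49.4 to 52.4 against 127 to 138. Their part in the differences below was not tested, and in these bulk samples fewer cells of a type and less RNA per cell cannot be told apart.

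The Dlk1-Dio3 domain on chromosome 12 held the largest decreases in Mtf2 null cells among the 36 genes tested. Meg3 (chr12:109541001-109571726), Rian (chr12:109603940-109661716) and Mirg (chr12:109729764-109749460) are noncoding RNAs on the plus strand of the maternal copy, the last 2 being hosts of small nucleolar RNAs and microRNAs. In undifferentiated cells Meg3 was at 90.5, 113, 78.7 and 115 CPM in WT, at 0.84, 0.518, 0.167 and 0.771 CPM in Mtf2 null, and at 78.8, 131, 82.2 and 116 CPM in the Jarid2 null-labelled libraries. The Mtf2 null values lay far below both other groups, which overlapped. The log2 fold change of Meg3 was −7.42 ± 0.32 (SE, n = 4 and 4, adjusted p = 7.8e-11) in Mtf2 null and 0.01 ± 0.18 in the Jarid2 null-labelled libraries. The contrast of Mtf2 null against the Jarid2 null-labelled libraries gave −7.43 ± 0.32 for Meg3 (adjusted p = 7.7e-11). Its difference takes in no WT mean, while WT libraries enter the scaling, filter and spread of the fit.

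Rian followed the same course, with 188, 237, 217 and 244 CPM in WT and 1.59, 1.97, 1.59 and 3.51 CPM in Mtf2 null undifferentiated cells (−6.67 ± 0.19, adjusted p = 8.4e-13). Mirg was at 19.3, 25, 15.7 and 25.8 CPM in WT, while the 4 Mtf2 null libraries held 3 counts in all, a ratio of 316-fold lower (95% exact Poisson interval 108 to 1536, counting error only). The loss lasted through differentiation. At 48 h of mesoderm Meg3 was at 253 and 243 CPM in WT against 0.636 and 0.872 in Mtf2 null (−8.33 ± 0.32, adjusted p = 8.3e-14). At 48 h of endoderm it was at 306 and 277 CPM against 0.449 and 0.349 (−9.48 ± 0.31, adjusted p = 8.4e-16).

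WT cells raised these RNAs between the undifferentiated state and 48 h. Meg3 rose by 1.28 ± 0.19 in mesoderm and 1.59 ± 0.17 in endoderm (log2, n = 2 and 2), Rian by 1.32 ± 0.17 and 1.78 ± 0.12, and Mirg by 1.74 ± 0.19 and 2.43 ± 0.20. Rian in Mtf2 null endoderm stayed between 1.59 and 3.51 CPM at every time, and the change of its genotype effect from undifferentiated to 48 h was −2.09 ± 0.29 (interaction contrast, adjusted p = 2.9e-05). Gm26906 overlaps Meg3 on the other strand, and the sources used here do not state whether counting used the strand.

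**Figure D2:**
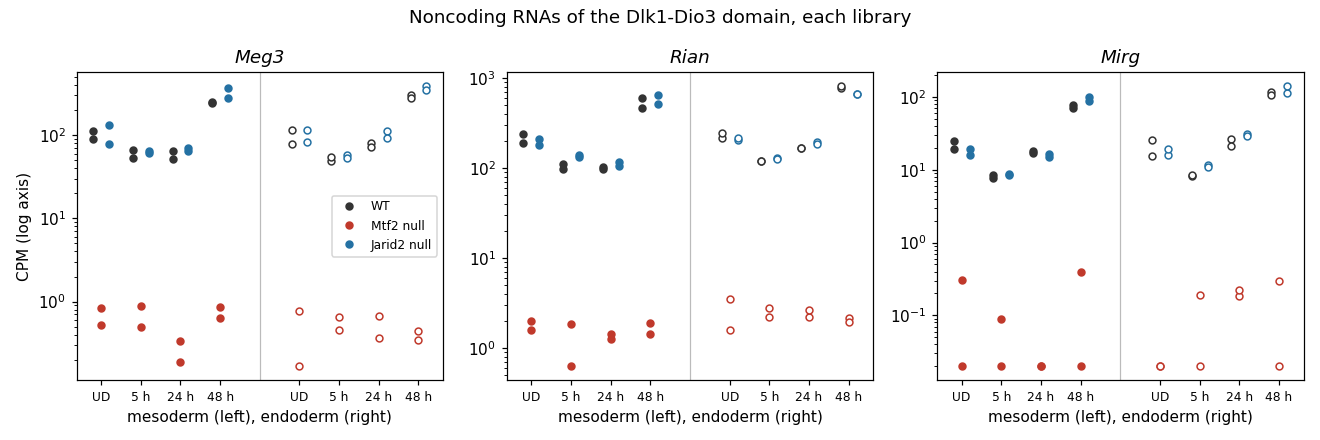
CPM (log axis) of Meg3, Rian and Mirg in each directed library by time and genotype, filled points for the mesoderm series and open points for the endoderm series; libraries at 0 are drawn at the bottom of the axis. WT libraries and those labelled Jarid2 null run together and climb at 48 h, while the Mtf2 null libraries stay below 4 CPM for all 3 RNAs.

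The paternally expressed genes of the same domain were scarce. Dlk1, a membrane ligand related to Notch ligands, was at 1.03 to 1.70 CPM in undifferentiated WT cells and at 0.28, 0.83, 0.586 and 0.771 CPM in Mtf2 null, a log2 fold change of −1.22 ± 0.34 that was not called (adjusted p = 6.1e-03). Against the Jarid2 null-labelled libraries, Dlk1 was lower in Mtf2 null by a called −1.61 ± 0.32 (adjusted p = 6.1e-04). Rtl1, a retrotransposon-derived placental gene, did not pass the filter on low counts. Its highest WT library held 0.565 CPM.

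In the H19-Igf2 domain on chromosome 7, both genes were higher in Mtf2 null cells in some comparisons. H19 (chr7:142575529-142578143, minus strand) is a maternally expressed noncoding RNA, and Igf2 (chr7:142650766-142666816, minus strand) is a paternally expressed fetal growth factor. Undifferentiated WT libraries held 0.493, 0.0852, 0.284 and 0.187 CPM of H19 and Mtf2 null libraries 4.76, 5.29, 5.10 and 5.23 CPM, with no overlap (log2 fold change 4.26 ± 0.38, adjusted p = 2.1e-07). At 48 h of mesoderm H19 was at 1.5 and 3.02 CPM in WT and at 61.2 and 47.1 CPM in Mtf2 null (4.61 ± 0.38, adjusted p = 1.4e-08). Jarid2 null-labelled libraries lay between them with 13.7 and 7.75 CPM, a difference of 2.26 ± 0.39 from WT that was not called (adjusted p = 2.6e-03), and Mtf2 null exceeded them by 2.35 ± 0.33 (adjusted p = 1.6e-05). In endoderm H19 stayed at 2.30 to 6.66 CPM in Mtf2 null from 5 to 48 h, and WT libraries held 1 or 2 counts per time, giving ratios of 31.3-fold (interval 8.27 to 265) at 5 h, 41.5-fold (11.1 to 350) at 24 h and 97.6-fold (17.2 to 3888) at 48 h.

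Igf2 behaved differently in the 2 series. Undifferentiated levels were 4.34, 3.15, 4.26 and 3.65 CPM in WT and 10.4, 6.95, 6.11 and 9.60 CPM in Mtf2 null (1.11 ± 0.20, adjusted p = 2.2e-04), a call that was lost when either series was fitted alone. In mesoderm WT cells raised Igf2 to 68.1 and 87.4 CPM at 48 h, a log2 change of 4.38 ± 0.23 (adjusted p = 2.8e-11). Mtf2 null cells reached 117 and 106 CPM there (0.52 ± 0.17 against WT, adjusted p = 0.023, not called), and the Jarid2 null-labelled libraries reached 293 and 283 CPM (1.89 ± 0.17, adjusted p = 4.5e-06). Here the Jarid2 null-labelled libraries were above both other groups, and the contrast of Mtf2 null against them was −1.37 ± 0.16 for Igf2 (adjusted p = 2.5e-06). In endoderm WT stayed at 4.76 and 6.03 CPM, the Jarid2 null-labelled libraries at 5.10 and 5.16, and Mtf2 null stood at 32.5 and 31 (2.56 ± 0.21, adjusted p = 4.1e-09). Igf2 is overlapped by Gm49394 on its own strand and by Igf2os on the other.

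The Kcnq1 domain on chromosome 7 holds maternally expressed growth regulators silenced in cis by the paternal noncoding RNA Kcnq1ot1. Cdkn1c (chr7:143458339-143461050), an inhibitor of cyclin-dependent kinases, was at 94.0, 82.3, 88.4 and 86.4 CPM in undifferentiated WT cells and at 13.7, 18.2, 17.2 and 19.9 CPM in Mtf2 null (−2.34 ± 0.10, adjusted p = 6.1e-11). Libraries with the Jarid2 null label held 58.8 to 68.8 CPM. At 5 h Cdkn1c was not called, with 35.6 to 37 CPM in WT and 42.3 to 46.4 in Mtf2 null over the 2 series. At 48 h of endoderm Cdkn1c was again lower in Mtf2 null, at 22.3 and 17.4 CPM against 46.6 and 42.2 (−1.16 ± 0.14, adjusted p = 7.0e-07), and at 48 h of mesoderm it was at 15.7 and 15.7 CPM against 21.2 and 31.4 (−0.74 ± 0.19, adjusted p = 7.5e-03, not called). The genotype effect on Cdkn1c differed between undifferentiated cells and 48 h by 1.73 ± 0.27 in mesoderm (adjusted p = 2.4e-04) and 1.07 ± 0.19 in endoderm (adjusted p = 3.7e-04).

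Phlda2, a placental growth restrainer of the same domain, was not called in undifferentiated cells (−0.13 ± 0.14, adjusted p = 0.43) and was higher in Mtf2 null at 5 and 24 h. At 24 h it was at 13.6 and 11.7 CPM in WT mesoderm against 34.1 and 37.3 in Mtf2 null (1.5 ± 0.23, adjusted p = 7.5e-05), and at 12.7 and 11.3 CPM in WT endoderm against 51.3 and 46.6 (2.03 ± 0.16, adjusted p = 2.4e-09). Ascl2, a transcription factor of trophoblast, was called higher in endoderm at 5 h (1.93 ± 0.30, adjusted p = 3.7e-05) and 48 h (4.94 and 6.00 CPM against 2.69 and 1.70, 1.31 ± 0.26, adjusted p = 4.7e-04), and those calls were lost with DESeq2. Kcnq1ot1 and Slc22a18, a transporter, were called in no genotype comparison. Kcnq1ot1 ranged from 74.4 to 220 CPM over undifferentiated libraries, and it overlaps Kcnq1 on the other strand.

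In the Igf2r-Airn domain on chromosome 17, Igf2r, the receptor that clears IGF2, was at 111, 76.4, 105 and 76 CPM in undifferentiated WT cells and at 206, 217, 185 and 196 CPM in Mtf2 null (1.14 ± 0.11, adjusted p = 6.8e-07). Without WT replicate 2 of the mesoderm series the Igf2r difference was 0.99, under the fold limit. The Jarid2 null-labelled libraries lay between, at 122 to 158 CPM. At 48 h Igf2r was at 170 and 204 CPM in WT mesoderm against 349 and 301 in Mtf2 null (0.80 ± 0.14), and at 160 and 144 CPM in endoderm against 331 and 264 (0.96 ± 0.15), both short of the fold limit. Airn, the paternal antisense RNA that overlaps Igf2r, held at most 2.00 CPM and was not called, with 2.00 and 1.51 CPM in Mtf2 null mesoderm at 48 h against 0.261 and 0.245 in WT (2.73 ± 0.76, adjusted p = 0.010).

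The Peg3 domain at the start of chromosome 7 held a bidirectional pair that was higher together. Peg3 (chr7:6703892-6730431, minus strand) and Usp29 (chr7:6730578-6967219, plus strand), a zinc finger protein and a ubiquitin protease, are paternally expressed from the shared promoter region printed above. Peg3 was at 44.6, 35.2, 50 and 37.2 CPM in undifferentiated WT, at 263, 244, 254 and 235 CPM in Mtf2 null and at 43.7, 38.7, 47.7 and 40 CPM in the Jarid2 null-labelled libraries. The log2 fold change was 2.59 ± 0.10 in Mtf2 null (adjusted p = 2.0e-11) and 0.01 ± 0.10 in the Jarid2 null-labelled libraries. At 24 h the difference was smaller, 74.7 and 68.4 CPM against 34.1 and 33.7 in mesoderm (1.08 ± 0.14, adjusted p = 7.3e-06) and 103 and 105 against 49.3 and 55.7 in endoderm (0.99, under the fold limit). By 48 h Peg3 was at 593 and 703 CPM against 92.1 and 110 in mesoderm (2.68 ± 0.14) and at 494 and 532 against 85.9 and 88.1 in endoderm (2.56 ± 0.14). Usp29 followed at lower counts, 7.38, 4.56, 6.27 and 5.23 CPM against 2.76, 1.62, 2.08 and 1.41 undifferentiated (1.59 ± 0.25, adjusted p = 7.9e-05), no call at 24 h, and 10.5 and 12.4 CPM against 2.61 and 4.24 at 48 h of mesoderm (1.76 ± 0.32, adjusted p = 3.1e-04). The undifferentiated Usp29 call was lost when a single series was fitted. Zim1, the maternally expressed neighbour, was called in no comparison and stood at 0.999 and 0.713 CPM in Mtf2 null mesoderm at 48 h against 2.42 and 2.94 in WT (−1.64 ± 0.46, adjusted p = 0.011).

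**Figure D3:**
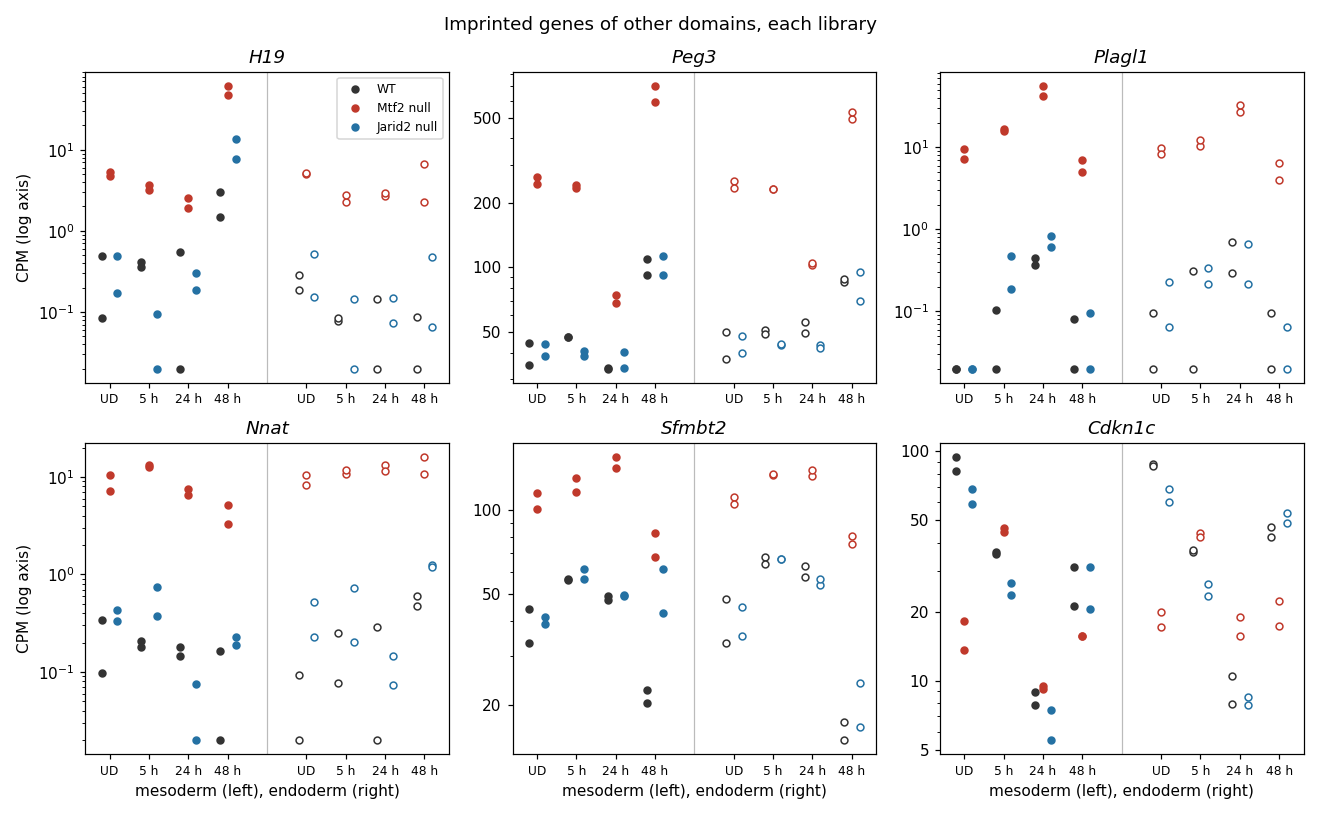
CPM (log axis) of H19, Peg3, Plagl1, Nnat, Sfmbt2 and Cdkn1c in each directed library by time and genotype, filled points for mesoderm and open points for endoderm, with libraries at 0 at the bottom of the axis. Mtf2 null points lie above WT for the first 5 genes at every time, and below it for Cdkn1c in undifferentiated cells, at 13.7 to 19.9 CPM against 82.3 to 94.0.

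In the Peg10-Sgce domain on chromosome 6, Peg10, a retrotransposon-derived gene needed for the placenta, was at 271, 189, 271 and 197 CPM in undifferentiated WT and at 871, 815, 853 and 810 CPM in Mtf2 null (1.86 ± 0.11, adjusted p = 2.0e-09). It was also called at 24 h in mesoderm (2.11 ± 0.13) and endoderm (1.81 ± 0.12). At 48 h of endoderm the groups overlapped, with 187 and 186 CPM in WT and 201 and 184 in Mtf2 null (0.05 ± 0.12), and the change of the effect was −1.78 ± 0.16 (adjusted p = 1.6e-07). In mesoderm that change was −1.16 ± 0.18 (adjusted p = 1.8e-04). The Jarid2 null-labelled libraries were highest at 48 h, at 1320 and 1420 CPM in mesoderm (1.16 ± 0.13, adjusted p = 4.3e-05) and at 417 and 368 CPM in endoderm (1.08 ± 0.12, adjusted p = 1.9e-05). Sgce, a sarcoglycan that starts beside Peg10 on the other strand, was called higher in undifferentiated Mtf2 null cells, at 8.68, 8.71, 8.95 and 9.26 CPM against 2.07, 4.00, 2.94 and 5.25 (1.31 ± 0.21, adjusted p = 9.4e-05), a call lost when a single series was fitted. Ppp1r9a and Calcr had no genotype call, and Asb4 stayed at or under 0.92 CPM and did not pass the filter.

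The Snrpn domain held few calls. Snrpn, a splicing factor, was called in no genotype comparison, and its undifferentiated levels were 38.8 to 55.6 CPM in WT and 69.1 to 76.5 in Mtf2 null (0.62 ± 0.10, adjusted p = 6.0e-05, under the fold limit). Ndn, a neuronal growth regulator, was called in mesoderm at 5 h, with 5.70 and 5.33 CPM in Mtf2 null against 1.90 and 2.30 in WT (1.39 ± 0.27, adjusted p = 5.6e-04). Its neighbour Magel2 was called in endoderm at 5 h, with 1.42 and 2.12 CPM against 0.463 and 0.168 (2.43 ± 0.48), and at 24 h, with 2.49 and 2.79 CPM against 0.654 and 0.575 (2.09 ± 0.40). DESeq2 did not keep these Ndn and Magel2 calls. Snurf shares its transcription unit with Snrpn, so the split of reads between them is uncertain.

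In the Grb10-Ddc domain on chromosome 11, Grb10, an adaptor that dampens insulin and IGF signalling, was at 290, 208, 309 and 217 CPM in undifferentiated WT and at 547, 525, 525 and 518 CPM in Mtf2 null (1.06 ± 0.12, adjusted p = 3.1e-06). The Grb10 call was lost without WT replicate 2 of the mesoderm series (0.91) or of the endoderm series (0.99). By 48 h of endoderm it was at 303 and 434 CPM in WT and 277 and 326 in Mtf2 null (−0.29 ± 0.18), and the effect had changed by −1.28 ± 0.25 (adjusted p = 8.5e-04). Ddc, the decarboxylase that makes dopamine and serotonin, was the one undifferentiated call in the Jarid2 null-labelled libraries, described below. In the Zrsr1-Commd1 domain neither gene was called against WT in the directed experiment. Zrsr1, a spliceosome gene inside an intron of Commd1, stayed at 13.0 to 23.6 CPM over all directed libraries, and the 2 overlap on opposite strands.

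Among the single loci, Plagl1, a zinc finger regulator of the cell cycle, had nearly no counts in E14 WT and clear expression in Mtf2 null cells. The WT lines of the bulk EBs did express it, as given below. The 4 undifferentiated WT libraries held 1 count in all (0, 0, 0.0947 and 0 CPM) and the Mtf2 null libraries 9.43, 7.15, 9.79 and 8.23 CPM, a ratio of 376-fold (interval 67.0 to 14870). At 24 h Plagl1 was at 56.1 and 42.7 CPM in Mtf2 null mesoderm against 0.452 and 0.365 in WT (6.89 ± 0.35, adjusted p = 6.1e-11), and at 26.7 and 32.9 CPM in endoderm against 0.291 and 0.703 (5.85 ± 0.41, adjusted p = 4.6e-10). The Jarid2 null-labelled libraries stayed at or under 0.842 CPM at every time.

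Nnat, a small membrane proteolipid gene inside an intron of Blcap, was at 7.19, 10.5, 8.28 and 10.5 CPM in undifferentiated Mtf2 null cells against 0.0985, 0.341, 0 and 0.0937 CPM in WT (5.93 ± 0.40, adjusted p = 8.8e-09). At 48 h of endoderm it was at 15.8 and 10.8 CPM against 0.606 and 0.471 (4.59 ± 0.42, adjusted p = 1.9e-08). The Jarid2 null-labelled libraries held at most 1.24 CPM and were not called.

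Sfmbt2, a paternally expressed, Polycomb-related gene that acts in trophoblast, was at 44.1, 33.5, 48.1 and 33.4 CPM in undifferentiated WT and at 115, 101, 111 and 105 CPM in Mtf2 null (1.45 ± 0.11, adjusted p = 2.5e-08). In WT endoderm it fell by 1.33 on the log2 scale at 48 h, to 15.0 and 17.4 CPM, where Mtf2 null cells kept 75.7 and 80.8 CPM (2.27 ± 0.16 against WT, adjusted p = 4.6e-10). In mesoderm at 48 h the levels were 20.4 and 22.7 CPM in WT, 67.6 and 82.5 in Mtf2 null and 42.7 and 61.5 in the Jarid2 null-labelled libraries, both null groups being called (1.80 ± 0.16 and 1.28 ± 0.16).

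Slc38a4, an amino acid transporter, was the one single locus called lower, at 48 h of endoderm, with 44.7 and 37.3 CPM in Mtf2 null against 105 and 96.3 in WT (−1.30 ± 0.15, adjusted p = 3.5e-07). Its undifferentiated difference was 0.26 ± 0.08, and the 2 differed by −1.54 ± 0.20 (adjusted p = 1.2e-05). Zdbf2 turned in the same way in endoderm, from 0.66 ± 0.10 undifferentiated to −0.89 ± 0.14 at 48 h (change −1.45 ± 0.20, adjusted p = 2.6e-05), without a call at either time. Impact, a translation regulator, changed its effect in both series, by −1.08 ± 0.16 in mesoderm and −1.10 ± 0.20 in endoderm. Mest, Gnas and Rasgrf1 had no genotype call and no called change of effect. In all, 8 of 36 genes in endoderm and 3 of 34 in mesoderm had a called change of the Mtf2 null effect (background 5.24% and 2.71%).

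Few imprinted genes differed between WT and the Jarid2 null-labelled libraries. In undifferentiated cells 1 of 32 imprinted genes was called, where 1.15% of genes were. This was Ddc, at 3.48, 2.17, 3.49 and 4.61 CPM against 7.29, 6.73, 7.39 and 7.4 in WT (−1.09 ± 0.18, adjusted p = 6.9e-04), with no overlap. The Ddc call was lost with the mesoderm series alone (−1.33, adjusted p = 0.029), the endoderm series alone (−0.89, adjusted p = 0.078) or the replicate block (−1.10, adjusted p = 0.0016), and without any of 7 of the 8 libraries. In mesoderm edgeR called 0, 0 and 3 of 34 at 5, 24 and 48 h, against 0.0%, 1.97% and 0.169% of genes, and in endoderm 0, 0 and 1 of 36, against 0.0363%, 0.0312% and 0.125%. At the 4 comparisons with 0 calls, 12, 13, 5 and 7 of the imprinted genes had an unadjusted p under 0.05 (mesoderm 5 and 24 h, endoderm 5 and 24 h), and DESeq2 called 0, 1, 0 and 0. The share of all genes under that p is not given here, so these counts are no result about imprinted genes. The calls at 48 h were Igf2, Sfmbt2 and Peg10 in mesoderm and Peg10 in endoderm. They rest on the spread shared with the other groups of the series, since no call was left at 48 h when only the 2 groups compared were fitted. Without WT replicate 1, mesoderm kept 1 call, and without WT replicate 2 or Jarid2 null replicate 1, endoderm kept 0. The Jarid2 null and Mtf2 null comparisons share their WT libraries.

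In WT cells themselves, 11 of 34 imprinted genes changed between the undifferentiated state and 48 h of mesoderm, 10 higher and 1 lower (background 8.64%, 5.57% higher and 3.08% lower), and 11 of 36 changed in endoderm, 8 higher and 3 lower (background 8.15%, 5.16% higher and 3.0% lower). Meg3, Rian, Mirg, Impact and Mest rose in both series. In mesoderm Igf2, Sgce (1.91 ± 0.27), Peg10 (1.42 ± 0.13), Peg3 (1.34 ± 0.14) and Igf2r (1.00 ± 0.14) also rose and Cdkn1c fell by 1.75 on the log2 scale. In endoderm Calcr, the calcitonin receptor (3.40 ± 0.60), Gnas, the stimulatory G protein subunit (1.28 ± 0.13), and Snrpn (1.19 ± 0.12) rose, and Ddc, Phlda2 and Sfmbt2 fell by 1.80, 1.54 and 1.33. The Igf2r call stood at the fold limit and was lost with DESeq2, with RLE scaling and with no filter.

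Genes that write or keep imprints were read from a list of 19 regulators. Against WT, Dppa3, Dnmt3l and Jarid2 were higher and Dnmt3a and Mtf2, the disrupted gene, lower in undifferentiated Mtf2 null cells, 5 of 19 where 14.7% of genes were called. Dppa3, a maternal factor that shields methylation marks in the zygote, was higher in Mtf2 null in all 7 comparisons, by 2.32 to 5.71 on the log2 scale, and Dnmt3l, a cofactor of de novo DNA methylation, by 1.04 to 1.53. Dnmt3a, a de novo DNA methyltransferase, was lower undifferentiated (−1.27) and at 48 h of endoderm (−1.33). In Mtf2 null cells 4 of the 19 were higher and 2 lower at 5 h of mesoderm, and 3 and 2 at 5 h of endoderm. The counts were 2 and 3 at 48 h of endoderm, and 3 and 1 at 24 and 48 h of mesoderm and 24 h of endoderm. Shares of all genes called in these comparisons are given above, and not every gene behind these counts is named. Of 31 other imprinted genes listed, 22 were tested in each differentiating series. There Peg13 was called higher at 24 h of mesoderm (3.99) and at 24 and 48 h of endoderm (2.51 and 2.68), and Zfp264 lower at 48 h in both series (−5.21 and −4.51).

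In bulk EBs, each null label was compared with its WT line over 4 days (limma on log2(CPM + 0.5), day as a block, adjusted p under 0.05, n = 4 days per line). The days are serial samples of 1 line, so these p-values measure how the difference varied between days, not between separate cultures. Fold changes on this scale understate those of low genes. H19, Airn, Kcnq1ot1, Meg3, Rian and Mirg were not analysed here. Under the Mtf2 null label 5 of 32 imprinted genes were called, each higher (background 7.37%, 4.7% higher). Igf2 at days 0, 2, 4 and 7 measured 7.29, 398, 1200 and 4100 CPM, where Pcl1-3 WT had 3.27, 2.53, 17.4 and 919 (4.08 ± 0.92, adjusted p = 0.041), and Peg10 at 882, 638, 1510 and 3820 against 182, 80.9, 290 and 1780 (2.18 ± 0.29, adjusted p = 0.011). Both were above WT on 4 of 4 days. Cdkn1c (1.43 ± 0.32), Ppp1r9a (1.27 ± 0.25) and Gnas (0.88 ± 0.20) were the other 3. Cdkn1c was at 31.4, 58.5, 101 and 207 CPM against 20.7, 13.8, 19.4 and 124 in Pcl1-3 WT. This direction is opposite to the Cdkn1c calls of the directed experiment, where WT was E14 and Mtf2 null was lower. Without day 0, Igf2 (5.09, adjusted p = 0.033), Peg10 (2.15, adjusted p = 0.035) and Cdkn1c (1.71, adjusted p = 0.038) stayed called and Ppp1r9a (adjusted p = 0.061) and Gnas (adjusted p = 0.07) did not. None of the 5 was called with no filter on low values or with no day block. Extraembryonic endoderm markers summed to 324, 268, 737 and 2297 CPM under the Mtf2 null label against 138, 143, 33.2 and 59.9 in Pcl1-3 WT, and trophoblast markers to 75.8, 308, 655 and 1336 against 88.9, 77.4, 173 and 764, and their part in these calls was not tested. Leaving out day 0, 2, 4 or 7 in turn left 4, 1, 0 and 2 calls under the Mtf2 null label.

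The day 0 library labelled Mtf2 null stood apart from its later days in several genes. Its columns are named mono and those of the later days eb, so day and this label cannot be told apart within a line. Plagl1 was at 0 CPM in it and at 7.85, 23.4 and 74.9 at days 2, 4 and 7, whereas under the Jarid2 null label it was at 19.0 at day 0 and at 0, 0 and 0.625 afterwards. Pcl1-3 WT held 17, 15.3, 5.57 and 7.75 CPM of Plagl1, above the Mtf2 null label at days 0 and 2 and below it at days 4 and 7. At day 0 JM8 and J1 held 2.84 and 2.4 CPM of it. Nnat was at 0.588 CPM at day 0 and 8.44, 3.21 and 3.88 later under the Mtf2 null label, and at 3.68 and then 0, 0.14 and 0.846 under the Jarid2 null label. Pcl1-3 WT held 9.88, 11.2, 8.34 and 14.3 CPM of Nnat, above the Mtf2 null label on each day. In the directed experiment, against E14 WT, Nnat was higher in Mtf2 null. Igf2 at day 0 was at 7.29 CPM under the Mtf2 null label and at 686 under the Jarid2 null label, where it was at 5.18 at day 2. No sample was given another label for these values.

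Under the Jarid2 null label 4 of 32 were called (background 13.2%, 6.81% lower), Gnas higher (0.64 ± 0.11, adjusted p = 0.018) and 3 lower. Nnat was lower by 3.80 ± 0.60 (adjusted p = 0.013), against 9.45, 11.8, 16.3 and 32.6 CPM in JM8. Commd1 was at 48.8, 54.6, 45.8 and 33.8 CPM against 80.9, 118, 88.2 and 60.3 (−0.90 ± 0.12, adjusted p = 9.4e-03), and Zdbf2 at 164, 333, 273 and 192 against 198, 459, 343 and 311 (−0.44 ± 0.11, adjusted p = 0.048). Without day 0, Nnat (−4.65, adjusted p = 0.0036), Commd1 (−0.96, adjusted p = 0.02) and Gnas (0.67, adjusted p = 0.042) stayed called and Zdbf2 (adjusted p = 0.065) did not. Leaving out day 0 gave 5 calls, day 2 gave 2, and day 4 or day 7 gave 0. With no day block Nnat alone was called, and with no filter none was. Extraembryonic endoderm markers were higher here as well, at 226, 531, 634 and 2342 CPM against 114, 82.2, 44.4 and 184 in JM8. Trophoblast markers were at 446, 52.4, 408 and 731 CPM against 185, 109, 498 and 965 in JM8, higher at day 0 alone.

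Under the Eed null label 4 of 32 were called (background 8.71%). Sfmbt2 was at 425, 388, 364 and 331 CPM against 95.8, 79.2, 52.6 and 62.8 in J1 (2.40 ± 0.12, adjusted p = 3.7e-03). Rasgrf1, a Ras exchange factor, was at 5.70, 1.17, 3.28 and 8.99 CPM against 0, 0.158, 0.303 and 0.529 (2.60 ± 0.43, adjusted p = 0.024), and Igf2r at 361, 261, 281 and 1110 against 266, 165, 173 and 707 (0.61 ± 0.09, adjusted p = 0.021). Commd1 was lower, at 48.7, 48.7, 52.4 and 32.9 CPM against 70.6, 78.4, 81.6 and 60 (−0.68 ± 0.11, adjusted p = 0.023). Without day 0, Sfmbt2 (2.49, adjusted p = 0.046) stayed called, and Igf2r, Commd1 and Rasgrf1 had adjusted p of 0.059, 0.061 and 0.076. Without any 1 day the count was 1, 1, 1 and 0 for days 0, 2, 4 and 7, so the Eed null calls rest on having 4 days. Sfmbt2 alone was called with no day block, and none with no filter. Extraembryonic endoderm markers summed to 178, 281, 373 and 1076 CPM in Eed null and 136, 199, 221 and 1100 in J1. Trophoblast markers summed to 867, 153, 574 and 1372 CPM in Eed null and 189, 61.9, 1080 and 1296 in J1, so Eed null was lower at day 4.

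**Figure D4:**
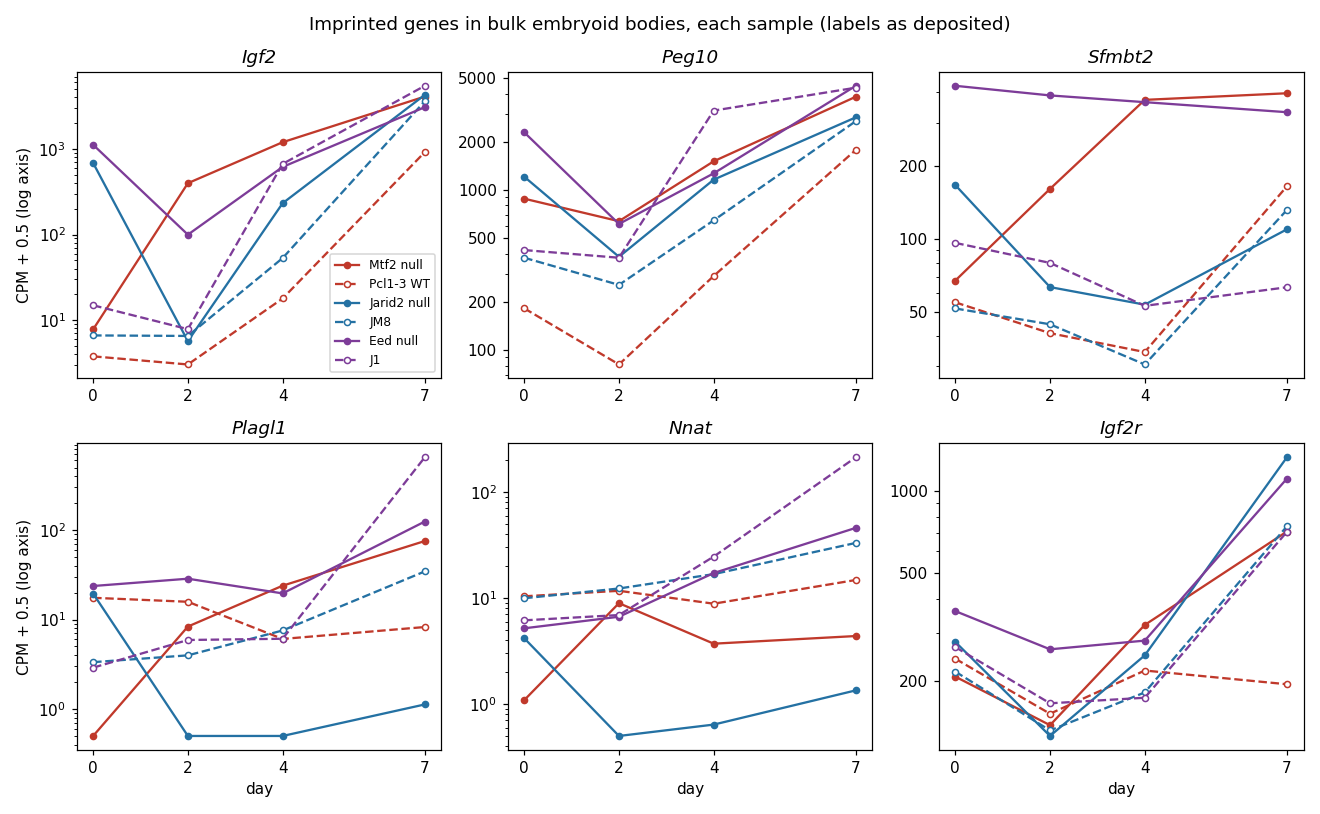
CPM plus 0.5 (log axis) of Igf2, Peg10, Sfmbt2, Plagl1, Nnat and Igf2r in bulk EBs by day, 1 point per line and day, each null label beside its WT line. Sfmbt2 in Eed null stays at 331 to 425 CPM while J1 stays at 52.6 to 95.8, and Plagl1 and Nnat show the day 0 libraries labelled Mtf2 null and Jarid2 null apart from their later days.

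In the single cells each genotype and day was 1 library, so ratios to WT have no replicate check, and 95% exact Poisson intervals cover counting error only. A gene was taken as past the limit at a log2 ratio of UMI CPM above 1 in size with at least 20 UMIs in the higher library. The share of imprinted genes past it ranged from 8 of 31 (Mtf2 null day 7, background 9.06%) to 16 of 26 (Jarid2 null day 4, background 15.4%). At day 0 the counts were 10 of 27 in Mtf2 null (13.5%), 14 of 26 in Jarid2 null (13.2%) and 11 of 29 in Eed null (15.6%). At day 4 Mtf2 null had 11 of 28 (12.9%) and Eed null 13 of 28 (19.6%), and at day 7 Jarid2 null had 15 of 29 (12.6%) and Eed null 15 of 32 (13.5%). At day 10 they were 9 of 31 (14.0%), 10 of 32 (15.5%) and 16 of 32 (18.0%). At day 7, 1 imprinted gene was higher and 14 lower in Jarid2 null (background 4.34% and 8.22%), and 10 were higher and 5 lower in Eed null (8.81% and 4.71%), with no test between these lines. The 3 null lines share the WT library of each day, so their agreement is not independent. Extraembryonic endoderm markers were at 64.5, 61.6, 388 and 341 UMI CPM in WT at days 0, 4, 7 and 10, and at 45, 25.6, 176 and 351 in Mtf2 null. They were at 37.1, 20.2, 44.1 and 237 in Jarid2 null, and at 80.1, 49.2, 116 and 482 in Eed null. Primitive streak and mesoderm markers at day 7 were at 922 UMI CPM in WT, 722 in Mtf2 null, 257 in Jarid2 null and 198 in Eed null. The part of these markers in the counts above was not tested.

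Meg3, Rian and Mirg were past the limit and lower in the 3 null lines on all 4 days, 12 of 12 comparisons each, all against the same 4 WT libraries. Of 7983 genes with enough UMIs in all 12, 4 were lower in all 12 (0.0501%), these 3 among them, and 5 were higher (0.0626%). Meg3 was at 373, 454, 597 and 1355 UMI CPM in WT at days 0, 4, 7 and 10. It was at 15.9, 54.5, 53.2 and 11.6 in Mtf2 null, at 12.1, 13.1, 69.3 and 85.9 in Jarid2 null, and at 33.3, 26.6, 62 and 57.5 in Eed null. The WT library was the highest of the 4 on every day, by 8.33-fold or more. The low Meg3 of the single-cell Jarid2 null line stands beside 78.8 to 131 CPM, within reach of WT, in the undifferentiated libraries labelled Jarid2 null of the directed experiment. The 2 experiments differ in library type and have no test between them.

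The Meg3 difference was also measured within clusters. Among the study's 22 clusters, 4 held at least 20 WT and 20 Mtf2 null cells (clusters 1, 4, 14 and 18), and Meg3 was lower in Mtf2 null with separate intervals in 4 of 4. In cluster 4 it was at 2430 UMI CPM in 122 WT cells (interval 2319 to 2544), at 83.9 in 159 Mtf2 null cells (67.9 to 103) and at 369 in 40 Jarid2 null cells (302 to 445). Meg3 was also lower in Jarid2 null in the 3 clusters that could be compared. No cluster held 20 WT and 20 Eed null cells. The clusters divide the same cells as the comparisons by day, so they are no separate check. The share of all genes with separate intervals was not computed.

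**Figure D5:**
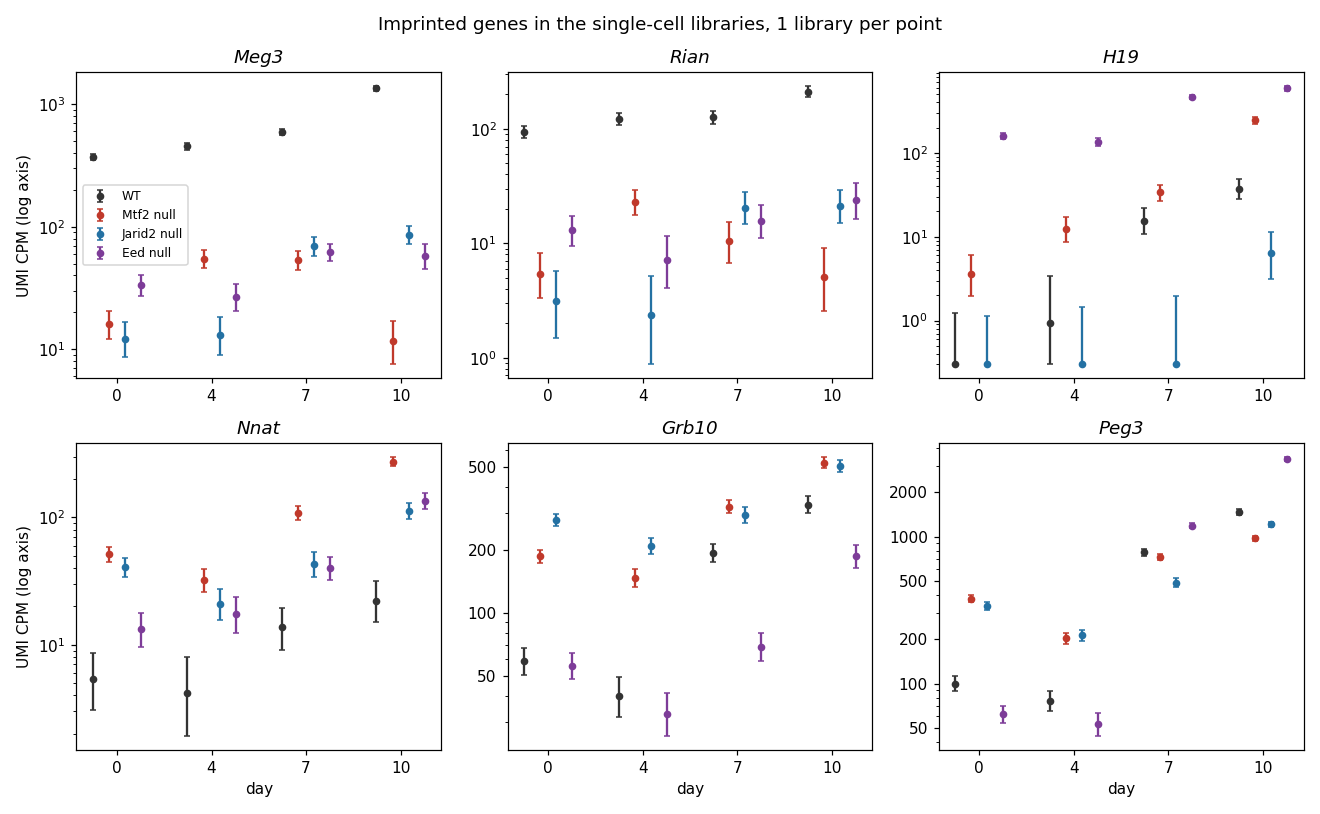
UMI CPM (log axis) of Meg3, Rian, H19, Nnat, Grb10 and Peg3 by day in the 4 genotypes, 1 library per point, with 95% exact Poisson intervals; libraries with 0 UMIs are drawn at the bottom of the axis. WT lies above the null lines for Meg3 and Rian and below them for Nnat on every day, and Eed null leads for H19.

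Nnat was past the limit and higher in 12 of 12 comparisons, with the WT libraries shared, and was 1 of the 5 such genes. It was at 5.35, 4.20, 13.7 and 22.2 UMI CPM in WT, at 51.4, 32.2, 108 and 274 in Mtf2 null, at 40.5, 21, 43 and 112 in Jarid2 null, and at 13.3, 17.3, 39.9 and 135 in Eed null. Within clusters 1, 4, 14 and 18, which divide the same cells, Nnat was higher in Mtf2 null with separate intervals in 4 of 4. For Nnat too this is no separate check, and no share of all genes was computed. In bulk EBs Nnat lay below the matched WT line under both the Mtf2 null and the Jarid2 null labels. H19 was at 0, 0.934, 15.5 and 37.2 UMI CPM in WT at days 0, 4, 7 and 10 (0, 2, 33 and 52 UMIs). In Eed null it was at 160, 136, 464 and 587 UMI CPM and in Jarid2 null it reached 6.34 UMI CPM (11 UMIs) at day 10. Mtf2 null lay between, at 3.60, 12.4, 33.7 and 244 UMI CPM.

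Grb10 and Peg3 were higher in 2 of the 3 null lines at the early days. Grb10 was at 58.5 and 39.7 UMI CPM in WT at days 0 and 4, at 186 and 147 in Mtf2 null, at 278 and 209 in Jarid2 null, and at 55.7 and 32.8 in Eed null. Peg3 was at 99.7 and 76.6 in WT, 379 and 204 in Mtf2 null, 339 and 214 in Jarid2 null, and 61.8 and 53.2 in Eed null. At day 7 WT held 780 UMI CPM of Peg3, above Mtf2 null (730) and Jarid2 null (487).

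Further genes differed from WT in 1 or more null lines. Phlda2 was low in Jarid2 null on all 4 days, at 140, 101, 101 and 131 UMI CPM against 479, 241, 574 and 358 in WT, and Cdkn1c there was at 3.74, 8.72 and 29.4 at days 0, 4 and 7 against 34.8, 38.8 and 87.6. Sfmbt2 was above WT in Eed null on all 4 days, at 179, 179, 175 and 149 UMI CPM against 81.3, 47.2, 52.3 and 37.2, and in Jarid2 null it was below WT at days 0, 4 and 7 (19.6, 15.5 and 16.8). In Mtf2 null Sfmbt2 was at 165, 92.6, 16.2 and 31.9 UMI CPM, above WT at days 0 and 4 and below it at day 7 with separate intervals, unlike the directed experiment, where it was higher in Mtf2 null at every time. Dlk1 was above WT in Eed null on every day, at 7.66, 12.8, 568 and 3981 UMI CPM against 2.01, 2.80, 125 and 1293. Plagl1 reached 389 UMI CPM in Eed null at day 10, 107 in Mtf2 null and 43.2 in Jarid2 null, against 7.87 in WT. Igf2 held at most 32 UMIs in any library, and Rtl1 and Rasgrf1 never reached 20.

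Counted over the directed experiment, 15 of the 36 genes tested had no call against WT. They were Airn, Kcnq1ot1, Slc22a18, Dlk1, Zim1, Snrpn, Mest, Impact, Gnas, Zrsr1, Commd1, Zdbf2, Ppp1r9a, Calcr and Rasgrf1, the last 2 tested in endoderm alone. Mest, a hydrolase-fold protein, was at 54.3 to 77.2 CPM in undifferentiated WT and 51.2 to 54.4 in Mtf2 null (−0.29 ± 0.11, adjusted p = 0.030). Impact was at 67.6 to 77 against 124 to 132 CPM (0.82 ± 0.09), and Commd1, a copper and protein trafficking factor, at 49.3 to 65 against 29.6 to 46.0 (−0.61 ± 0.14). Their differences ran both ways and stayed under the fold limit.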

How the data were processed

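Directed libraries were deposited as estimated counts per gene that the authors made with Salmon on mm10, not all whole (74.9% and 73.1% of values were). They were rounded and scaled with TMM (factors 0.83 to 1.16), and genes under filterByExpr's minimum (count 10, total 15) were left out. A quasi-likelihood test in edgeR 4.0.16 (R 4.3.3) was run per series with 1 mean per genotype and time, and over the undifferentiated libraries of both series with a series term. Both columns taken as Jarid2 null endoderm at 48 h carry another hour in their names. They were assigned to 48 h by sample title and library number. The bulk EB table was deposited as a normalised signal (gene counts divided by size factors by the authors), from which whole reads could be recovered in 45 of 46 columns (tolerance 0.02; 3005707 to 22944105 reads). Columns of the same line and day were averaged, scaled to CPM with TMM and tested with limma 3.58.1. Single-cell UMI counts, mapped with Bowtie2 and counted with HTSeq, were used as deposited by the authors, with their 4949 filtered cells and 22 clusters, summed per library and divided by the total. Doublets were not called again.

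The 38 genes, the other lists and the tests were chosen with earlier results of these data known. Every listed gene is accounted for: those called in a comparison with values per library, the others by range and count. Other imprinted genes and regulators are named if called in at least 2 of the 14 directed genotype comparisons. Single-cell floors and intervals use 3 counts and 95%. DESeq2 1.42.0 was an alternative, beside scaling, filters, thresholds, left-out libraries and days, and a block for the replicate number. Scripts were tested on simulated data. Gene positions are from GENCODE on GRCm38, promoters from RefSeq (GRCm38.p6).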

Additional observations from a re-analysis of the deposited data

Results flagged for a closer look

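In groups of 4 undifferentiated libraries, 3 of 48 gene and genotype groups held a library whose gap to the others exceeded Dixon's 95% critical share of the range, and chance flags about 1 group in 20. These were Ddc in WT replicate 2 of the mesoderm series (6.73 CPM), Mirg in Mtf2 null replicate 2 of the mesoderm series (0.311 CPM) and Plagl1 in WT replicate 1 of the endoderm series (0.0947 CPM). The Mirg and Plagl1 libraries held the few counts of their group.

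The Mtf2 null effect of 8 genes differed between undifferentiated cells and 48 h by a test of the change itself (edgeR interaction contrast, log2 scale). In mesoderm the change was −1.08 for Impact, 1.73 for Cdkn1c and −1.16 for Peg10. In endoderm it was 2.05 for Ascl2, −1.28 for Grb10, −1.54 for Slc38a4, −1.10 for Impact, −1.45 for Zdbf2, 1.07 for Cdkn1c, −1.78 for Peg10 and −2.09 for Rian. Impact, Cdkn1c and Peg10 were called in both series, in the same direction. The Rian value rests on counts near 0 in Mtf2 null cells.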

How the results depend on the processing

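Of 235 alternatives for a count of called imprinted genes, 178 gave a count within 1.5 times the reported one, and of 1737 alternatives for single genes 0 reversed a direction and 170 lost a call, 67 of them among 117 for embryoid bodies. In the directed experiment 76 of 107 named results kept their call under every alternative run. With adjusted p under 0.05 and no fold limit, Mtf2 null counts were 26 undifferentiated, 19, 16 and 19 in mesoderm at 5, 24 and 48 h and 21 in endoderm at 48 h. Jarid2 null counts were 5 undifferentiated, 9 at 24 h of mesoderm, 1 and 3 at 24 and 48 h of endoderm, and WT time counts were 18 and 22. Shares of all genes at this threshold are not given, so these counts show only how the reported ones depend on the threshold. At 24 h of mesoderm DESeq2 and no filter each gave 1 Jarid2 null call. With only the groups compared in the fit, Jarid2 null counts at 48 h were 0 and 0 and the WT mesoderm count 7. With the mesoderm or endoderm series alone the undifferentiated Jarid2 null count was 0 and 0.

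Embryoid bodies gave 0, 0 and 0 calls for Mtf2, Jarid2 and Eed null labels with no filter and 0, 1 and 1 with no day block. Pseudocount 2 gave 5, 3 and 4, the deposited scaling 5, 4 and 4, and edgeR on recovered reads 4, 3 and 4 (1045, 1978 and 1000 over all genes). A log2 limit of 2 in the single cells gave 6, 8 and 7 at day 0 for Mtf2, Jarid2 and Eed null, 7, 6 and 8 at day 4, 5, 8 and 7 at day 7, and 8 for Eed null at day 10. No share of all genes is given at this limit.

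Leaving out 1 library gave 12 to 15 undifferentiated Mtf2 null calls, 7 to 9, 8 to 9 and 8 to 9 in mesoderm at 5, 24 and 48 h (7 without either WT library of 5 h) and 8 to 11, 9 to 10 and 11 to 14 in endoderm. Jarid2 null counts were 0 to 1 undifferentiated (0 without any of 7 of the 8 libraries), 1 to 3 and 0 to 1 at 48 h of mesoderm and endoderm, and WT time counts were 10 to 12 and 10 to 13. The undifferentiated Igf2r and Grb10 calls were each lost without a WT library. Leaving out 1 day gave 0 to 4, 0 to 5 and 0 to 1 in embryoid bodies.

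Deviations of same-numbered libraries of different groups within a series correlated between −0.21 and 0.33. The highest values were 0.33 and 0.26, for undifferentiated WT and Jarid2 null libraries of mesoderm and endoderm, and the others lay between −0.21 and 0.15. Replicate numbers may thus link undifferentiated WT and Jarid2 null libraries, and the main fits did not use these numbers. Across the 2 series, same-numbered undifferentiated libraries of a genotype were linked (0.56 to 0.61), and either series alone gave 12 undifferentiated Mtf2 null calls. With the replicate block the undifferentiated Jarid2 null count was 0, and no other count moved by over 1.5 times. Crossing the numbers of 1 mesoderm group, chosen after seeing the data, gave 15 undifferentiated Mtf2 null calls and 11 WT calls. Depth limits Rtl1, Asb4, Airn and Magel2, which held few counts.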
